A study of Homo sapiens with 3 samples.

Results

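Transcripts of 4 genes that make, remove or sense adenosine were followed in HCT116 cells, an established human colorectal cancer line: NT5E, ADA, ADK and ADORA2B. They were taken by symbol from 15625 genes with deposited values, and were chosen with their values in these libraries already known. Their levels and differences from the control are therefore a description with no test. There were 3 libraries, 1 of cells given a control shRNA (sh_control) and 2 of cells given an shRNA against circRAPGEF5, a circular RNA named for its host gene RAPGEF5 (sh_circRAPGEF5_1 and sh_circRAPGEF5_2, here knockdown libraries 1 and 2). Cells of both groups carried the label MT for genotype, received an shRNA system from Sigma-Aldrich and were collected 36 or 48 h later, with no label saying which library had which time. Whether the knockdown libraries are separate hairpins, cultures or repeats of 1 culture is not stated, so their spread may be technical. Their files did not hold the same values.

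Adenosine outside the cell comes largely from ATP that cells release: ectonucleoside triphosphate diphosphohydrolases (the ENTPD family) take ATP and ADP to AMP, and NT5E, the surface enzyme also known as CD73, takes AMP to adenosine. Adenosine then binds G protein-coupled receptors, among them ADORA2B, the A2B receptor, which raises cyclic AMP through the stimulatory G protein and is the receptor of low affinity that colon epithelium carries. It is cleared by uptake through nucleoside transporters of the SLC29 family, by ADA, which deaminates it to inosine, and by ADK, which phosphorylates it back to AMP inside the cell.

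Because NT5E and ADORA2B were both higher in both knockdown libraries, the 250 bases before their RefSeq transcription starts are shown first, with those of ADA, which was higher by less. Capitals mark every match, on either strand, to the letters searched: TGANTCA (AP-1), TGACGTCA (the CREB site), TGACG (its half-site, which lies within it), ACGTG (the hypoxia response core), GGGCGG (the GC box of SP1 family factors) and CCGGAA (the ETS core).
NT5E, chr6:85449833-85450082, plus strand: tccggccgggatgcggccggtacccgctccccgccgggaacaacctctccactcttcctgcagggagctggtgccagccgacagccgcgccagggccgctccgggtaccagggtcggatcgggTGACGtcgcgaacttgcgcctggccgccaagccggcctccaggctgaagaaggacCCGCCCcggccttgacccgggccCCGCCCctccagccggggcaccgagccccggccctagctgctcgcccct
ADORA2B, chr17:15944880-15945129, plus strand: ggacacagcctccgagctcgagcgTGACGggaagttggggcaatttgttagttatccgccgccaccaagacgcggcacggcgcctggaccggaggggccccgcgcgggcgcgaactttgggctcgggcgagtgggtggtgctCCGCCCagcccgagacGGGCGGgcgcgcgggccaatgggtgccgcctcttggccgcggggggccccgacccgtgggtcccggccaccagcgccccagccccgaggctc
ADA, chr20:44651700-44651949, minus strand: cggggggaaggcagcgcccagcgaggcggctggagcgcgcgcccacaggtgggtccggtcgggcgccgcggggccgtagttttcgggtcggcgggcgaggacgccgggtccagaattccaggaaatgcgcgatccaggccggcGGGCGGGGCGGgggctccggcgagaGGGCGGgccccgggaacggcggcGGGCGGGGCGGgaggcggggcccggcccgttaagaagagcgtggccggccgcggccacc
Sequences and these positions are from RefSeq on GRCh38.p14, and all 4 genes had an entry, ADK with 2 starts. The gene spans given below are from GENCODE 29, where all 4 genes start further upstream. The NT5E, ADA and second ADK windows lie wholly inside those spans. Most of the ADORA2B window does, and so does the end of the first ADK window. These windows are thus upstream of the RefSeq start only. NT5E and ADORA2B each held 1 TGACG half-site, 127 to 123 bases before the start in NT5E and 226 to 222 bases before it in ADORA2B, and each held 2 GC boxes. ADA held 5 GC boxes, of which 2 pairs overlap by 1 base, and no half-site. The first ADK start had 4 GC boxes, and the second had 1 half-site and 2 GC boxes. None of the 5 windows held the letters searched for AP-1, the full CREB site, the hypoxia core or the ETS core. Among all 35116 windows of this length in the table, 21.2% held the half-site, 42.6% the GC box, and 6.60% held at least 1 half-site with at least 2 GC boxes. The windows of NT5E and ADORA2B were both 75.2% G and C against a median of 58% in the table. The joint share is for the combination seen in those 2 windows and also in the second ADK window. The windows compared were not matched for G and C. It is therefore a description, and whether these matches are more frequent than in like windows was not tested.

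Levels are in FPKM, a fragment count divided by gene length and library size, so they can be compared between genes. After a depth factor was taken out of each library, the values of every gene stood in ratios of whole numbers, which gives the least number of reads that can lie behind them. These least numbers came to 14632390 reads for the control and 14832142 and 15758794 for knockdown libraries 1 and 2. Intervals below are exact 95% intervals from those reads. They cover counting error only, with no spread between cultures, and would be narrower if true read numbers were larger. RAPGEF5, whose gene-level value does not measure the circular RNA and so does not check the knockdown, was lower than the control (1.98 FPKM) in library 1 (1.33) and higher in library 2 (2.73). All 8 epithelial markers had values above 1 FPKM, with a sum of 2466 in the control against 2718 and 3989. Of these, 3 were higher in both knockdown libraries (the keratins KRT8, KRT18 and KRT19, KRT18 at 478 against 652 and 885), 3 were lower in both (ESRP1 at 64.9 against 31.2 and 31.0, CDH1 at 33.1 against 20.3 and 26.7, CLDN3 at 9.68 against 4.28 and 7.75), and EPCAM and CLDN4 lay on opposite sides. NT5E and ADA are also carried by stromal, endothelial and white blood cells, so markers of these were read too. Of 10 stromal markers 5 had values and 3 of those were below 1 FPKM in every library, and the summed level was 22.4 FPKM in the control against 15.5 and 10.4, nearly all of it COL1A1 and ACTA2. Of 7 endothelial markers 4 had values, with VWF, KDR and TEK below 1 FPKM in every library and the sum at 13.5 against 11.2 and 15.7, nearly all of it EGFL7. Of 12 leukocyte markers 8 had values and 5 were below 1 FPKM in every library. PTPRC, which marks nearly all white blood cells, was listed at 0 in the control and in knockdown library 1 and rested on 1 read in knockdown library 2. The leukocyte sum was 6.03 against 5.43 and 11.4 FPKM. CD68, a lysosomal protein abundant in macrophages, made up most of the last value, at 7.50 FPKM in library 2, after 3.55 in library 1 and 1.30 in the control, on at least 9 control reads. The labels name HCT116 cells only. Whether cells of these other types were present, or had any part in the results below, was not tested.

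NT5E (Entrez 4907, GRCh38 chr6:85449584-85495791 in GENCODE 29, plus strand) was at 2.22 FPKM in the control, 26.5 in library 1 and 18.4 in library 2 of the knockdown. The control stood below both knockdown libraries, whose mean was 22.4 ± 5.72 (SD, n = 2). Behind these values were at least 43, 519 and 382 reads. The level was 11.9 times the control in library 1 (counting interval 8.72 to 16.7) and 8.27 times in library 2 (6.02 to 11.6). Knockdown library 1 was 1.44 times library 2 (1.26 to 1.65), so the knockdown libraries differed from each other beyond counting error, by far less than either differed from the control. Among all genes, NT5E stood at percentile 34.3 of FPKM in the control, and the knockdown libraries put it at percentiles 83.2 and 77.0. On the log2(FPKM + 1) scale, which understates differences of weakly expressed genes, the mean difference was 2.84 ± 0.36 (SD, n = 2). Ranked on whichever knockdown library lay closer to the control, NT5E was number 3 of the 11216 genes whose mean FPKM was at least 1.

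ADORA2B (Entrez 136, chr17:15944917-15975746, plus strand) had 3.12 FPKM in the control, against 12.6 in knockdown library 1 and 11.8 in library 2. Both knockdown libraries lay well above the control and close to each other, with a mean of 12.2 ± 0.527 (SD, n = 2). The level was 4.02 times the control in library 1 (3.54 to 4.59) and 3.78 times in library 2 (3.33 to 4.31). Library 1 against library 2 gave a ratio of 1.06 (0.981 to 1.15), a difference that was not detectable at this depth. On the log2(FPKM + 1) scale the mean difference was 1.68 ± 0.058 (SD, n = 2), and ADORA2B was number 21 of 11216 genes in the same ranking.

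ADA (Entrez 100, chr20:44619522-44652233, minus strand) had 7.59 FPKM in the control, against 12.1 in knockdown library 1 and 20.3 in library 2. The control was again the lowest library, while the knockdown libraries lay apart from each other. The level was 1.59 times the control in library 1 (1.32 to 1.92) and 2.68 times in library 2 (2.26 to 3.18), and library 2 was 1.68 times library 1 (1.46 to 1.95). For ADA, then, knockdown library 2 was the higher one, the reverse of NT5E. The mean log2 difference was 0.96 ± 0.50 (SD, n = 2). Of its exon bases, 46 of 2852 overlap those of PKIG on the other strand. Whether counting used strand is not given in the sources used here, so reads over these bases cannot be assigned. PKIG had 7.84 FPKM in the control, 7.86 in library 1 and 4.41 in library 2.

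ADK (Entrez 132, chr10:74151185-74709303, plus strand) had 10.5 FPKM in the control, against 14.9 in knockdown library 1 and 9.65 in library 2. The control lay between the knockdown libraries, so ADK had no common direction. Library 1 was 1.42 times the control (1.29 to 1.56) and library 2 was 0.915 times the control (0.826 to 1.02), an interval that includes no difference. Its log2 differences were 0.46 and -0.12, with a mean of 0.17 ± 0.41 (SD, n = 2). In the annotation 227 of its 3184 exon bases overlap an antisense gene and 188 a processed pseudogene, so its value is uncertain to that extent.

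**Figure D1:**
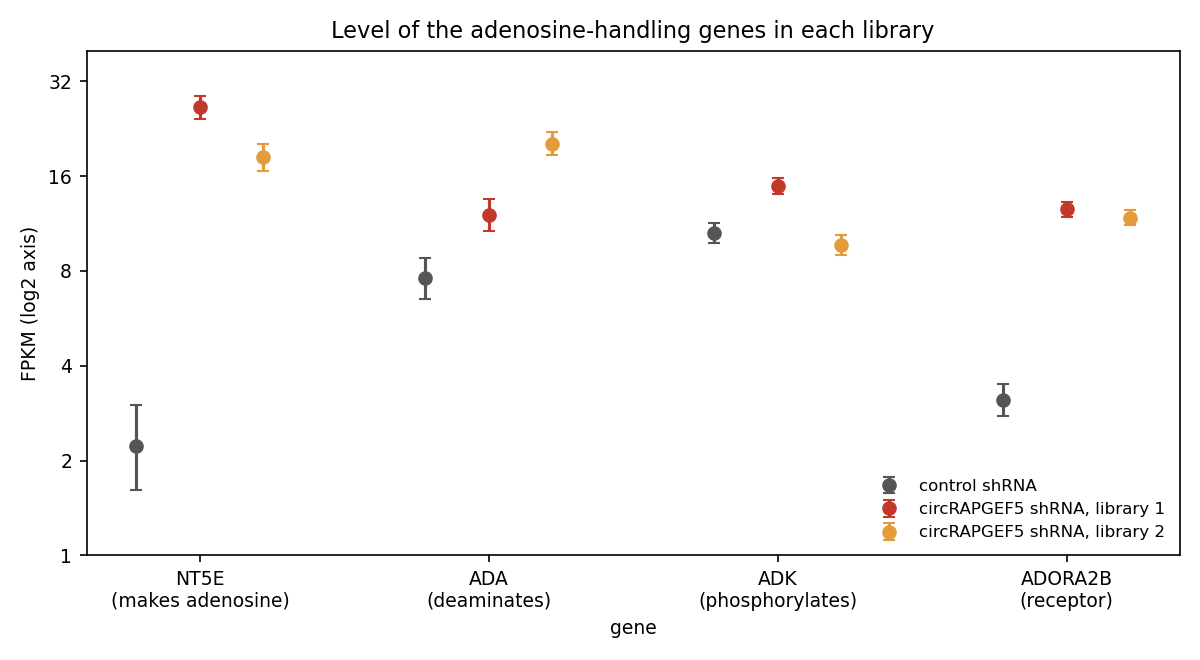
Level of NT5E, ADA, ADK and ADORA2B in FPKM (vertical axis, log2 scale) in the control library and the 2 knockdown libraries, 1 point per library; bars are exact 95% counting intervals. NT5E and ADORA2B are lowest in the control, at 2.22 and 3.12 FPKM, with both knockdown libraries above 11 FPKM, while ADK in the control, at 10.5, lies between the knockdown libraries.

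Of the 4 genes, 3 were higher in both knockdown libraries, where 31.7% of all genes tested were, and 2 were at least 2-fold higher in both on the log2(FPKM + 1) scale, where 1.21% of all genes were (136 genes, against 191 lower; 186 and 138 under median-ratio rescaling). Since these genes were chosen with the values known, nothing follows from those counts. Between the knockdown libraries themselves 0 of the 4 differed at least 2-fold on this scale, as 8.99% of all genes did. The order of levels differed between libraries. In the control ADK (10.5 FPKM) stood above ADA (7.59), ADORA2B (3.12) and NT5E (2.22). In knockdown library 1 NT5E (26.5) was the highest of the 4, above ADK (14.9), ADORA2B (12.6) and ADA (12.1). In knockdown library 2 ADA (20.3) and NT5E (18.4) led, above ADORA2B (11.8) and ADK (9.65). Ordered by the mean of the knockdown libraries, NT5E (22.4 ± 5.72), ADA (16.2 ± 5.83), ADK (12.3 ± 3.72) and ADORA2B (12.2 ± 0.527; SD, n = 2 for each) overlapped each with its neighbour over the 2 libraries.

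A ratio of levels within a library does not depend on scaling between libraries. NT5E to ADA, the enzyme that makes adenosine against the one that deaminates it, was 0.293 in the control, against 2.19 in knockdown library 1 and 0.905 in library 2. The control ratio was the lowest, and library 1 was the one with more NT5E than ADA. NT5E to ADK was 0.211 in the control, and the knockdown libraries lay close together at 1.77 and 1.90. ADA to ADK was 0.720 in the control and 0.809 in knockdown library 1, against 2.10 in knockdown library 2, so library 2 alone stood apart on this measure. These are ratios of transcript levels and do not measure enzyme activity or adenosine.

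**Figure D2:**
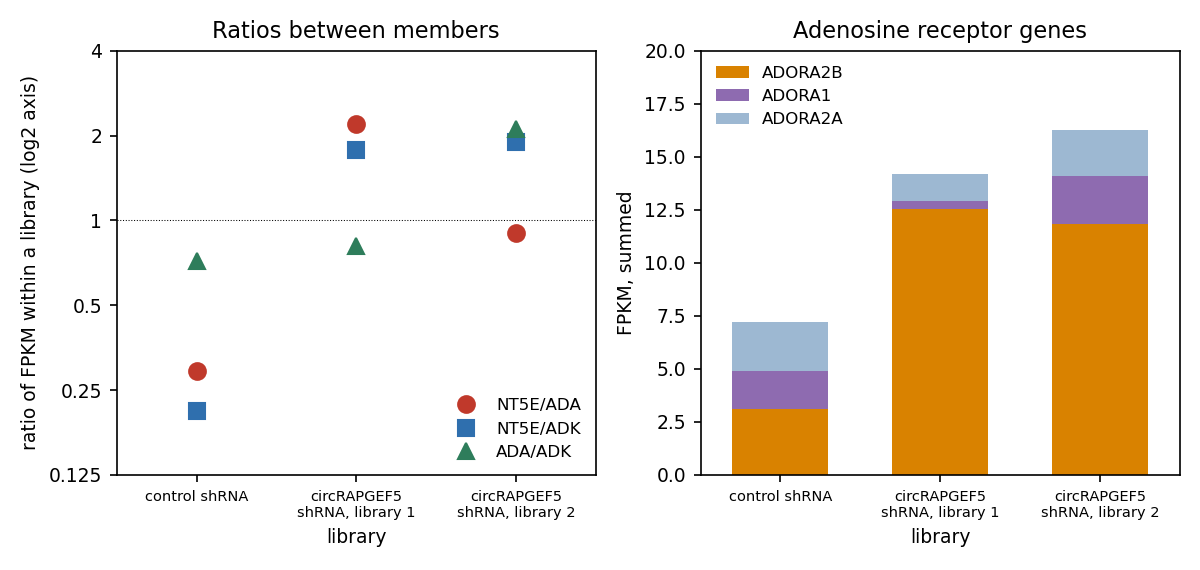
Left, ratios of FPKM between NT5E, ADA and ADK within each library (log2 axis); right, summed FPKM of the 3 adenosine receptor genes with values (stacked bars from 0). NT5E to ADK is 0.211 in the control against 1.77 and 1.90, and ADORA2B makes up 43.3% of the receptor sum in the control against 88.5% and 72.5%.

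The other genes around adenosine were read from 7 lists by role, holding 76 genes besides the 4. Of these, 65 had values and 40 had a mean FPKM of at least 1 and were tested with limma on log2(FPKM + 1), 1 control against 2 knockdown libraries, with Benjamini-Hochberg adjustment over all 11216 genes. None of the 40 passed an adjusted p of 0.05, the smallest being 0.614, where 0.0178% of all genes were called higher and 0% lower. At an unadjusted p under 0.05, where 7.07% of all genes lay, 1 was higher and 3 were lower. Of the 40, 10 were higher in both knockdown libraries, 14 lower in both (37.6% of all genes were) and 16 lay on opposite sides. On the log2(FPKM + 1) scale none was at least 2-fold higher or lower in both, where 1.21% and 1.7% of all genes were. With a pseudocount of 0.1 in place of 1 there was 1 lower. Their median log2 difference was -0.05, as it was over all genes tested (-0.24 and 0.08 in libraries 1 and 2, against -0.04 and -0.04 over all genes). With 1 residual degree of freedom the test finds only large differences, and the lone control is assumed to vary like the knockdown libraries.

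**Figure D3:**
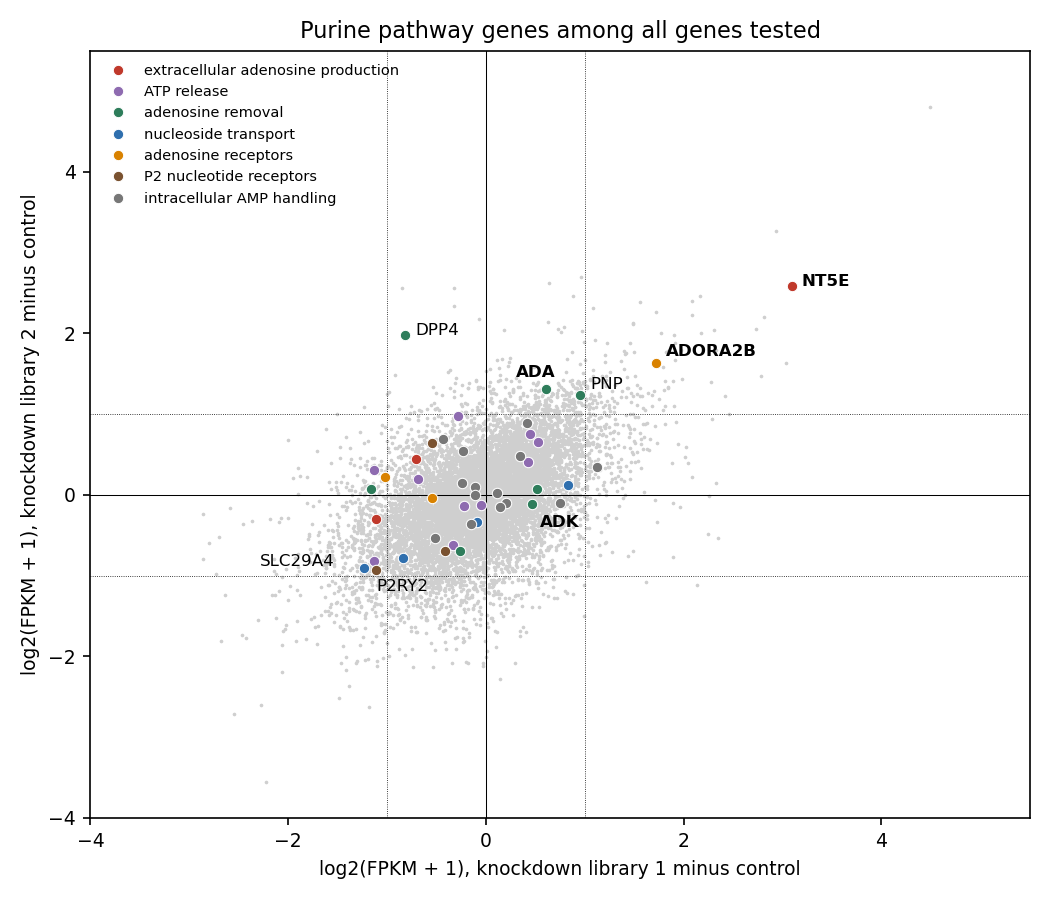
Difference from the control on the log2(FPKM + 1) scale in knockdown library 1 (horizontal) and library 2 (vertical) for 11216 genes tested (grey) and the tested genes of 7 lists by role (colours); dotted lines mark 2-fold. NT5E and ADORA2B lie past both lines at the upper right, while the other 40 list genes do not pass a 2-fold line in the same direction in both libraries. Both axes share the control library.

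Besides NT5E, the list for extracellular adenosine production held 11 genes with values. Only ENTPD2 and ENPP1 had a mean of at least 1 FPKM. Neither was higher in both knockdown libraries, where 31.7% of all genes were. ENTPD2, which takes ATP to ADP, was at 14.98 FPKM in the control, 6.42 in library 1 and 12.02 in library 2, with a log2 difference of -0.70 ± 0.46 (SE) and a limma adjusted p of 0.816. ENTPD1, known as CD39, the main partner of CD73 on immune cells, was listed at 0 in the control and rested on at least 2 and 3 reads in the knockdown libraries. ENPP1, which releases AMP from ATP, was at 1.87 FPKM against 0.757 and 2.91, on opposite sides of the control. The ratio of NT5E to ENTPD2, a pair chosen after the values were seen, was 0.148 in the control, 4.12 in library 1 and 1.53 in library 2.

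Among genes for ATP release, 3 of 10 were higher in both knockdown libraries and 4 lower in both, close to the 31.7% and 37.6% of all genes. PANX2, a pannexin channel subunit, was at 9.39 FPKM in the control against 3.75 and 4.91, with a log2 difference of -0.97 ± 0.44 (SE) and a limma adjusted p of 0.706. SLC17A9, the vesicular nucleotide carrier, was at 16.3 against 23.9 and 26.2 (0.59 ± 0.40). The volume-regulated channel subunits LRRC8E and LRRC8B had log2 differences of 0.60 and 0.42. None of these 4 passed.

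On the removal side PNP, which splits the inosine that ADA makes, was at 41.7 FPKM in the control, against 81.7 in knockdown library 1 and 99.5 in library 2. Both knockdown libraries lay above the control, with a log2 difference of 1.10 ± 0.39 (SE) and a limma adjusted p of 0.614, so PNP did not pass. As with ADA, library 2 was the higher. DPP4, the surface protein known as CD26 that binds ADA outside the cell, was at 1.24 FPKM in the control, 0.271 in library 1 and 7.84 in library 2. On the log2(FPKM + 1) scale these are differences of -0.82 and 1.98, the widest gap between the knockdown libraries among tested genes of the 7 lists. The removal list also held AHCY, which releases adenosine from S-adenosylhomocysteine and so is a source of it. AHCY was at 85.8 against 123 and 90.6, and its relative AHCYL1, also in that list, at 35.4 against 29.4 and 21.5. ADA2, the secreted deaminase, was listed at 0 in 2 libraries and rested on 1 read in the other.

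Of the nucleoside transporters, 3 of 4 tested were lower in both knockdown libraries and 1 was higher in both, beside 37.6% and 31.7% of all genes. SLC29A4, a plasma membrane transporter of monoamines and adenosine, was at 17.2 FPKM in the control against 6.76 and 8.73, with a log2 difference of -1.07 ± 0.42 (SE) and a limma adjusted p of 0.628. SLC29A2, which carries nucleosides and bases, was at 19.9 against 10.7 and 11.2 (-0.81 ± 0.41, adjusted p 0.747). SLC29A1, the main equilibrative transporter, was at 34.1 against 31.9 and 26.8, and the lysosomal SLC29A3 at 3.71 against 7.39 and 4.11. The summed level of the 4 was 75.0 FPKM in the control, with both knockdown libraries lower, at 56.8 and 50.8. None of the 4 passed the test.

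ADORA2B was the only adenosine receptor gene above the control in both knockdown libraries among the 3 with values. ADORA1, which inhibits adenylyl cyclase, was at 1.80 FPKM in the control, 0.378 in library 1 and 2.26 in library 2. ADORA2A, the high-affinity stimulatory receptor, was at 2.28 against 1.25 and 2.21. Neither passed the test (limma adjusted p 0.925 and 0.935). ADORA2B therefore made up 43.3% of the summed FPKM of the 3 genes in the control, 88.5% in library 1 and 72.5% in library 2, while the sum was 7.20, 14.2 and 16.3 FPKM. ADORA3 was not analysed here. Beside 37.6% of all genes, 2 of 3 tested receptors for ATP and related nucleotides were lower in both libraries. These were P2RY2, which responds to ATP and UTP, at 2.25 FPKM against 0.508 and 0.712 (log2 difference -1.02 ± 0.44, limma adjusted p 0.692), and the ATP-gated channel P2RX4 at 11.4 against 8.35 and 6.69.

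**Figure D4:**
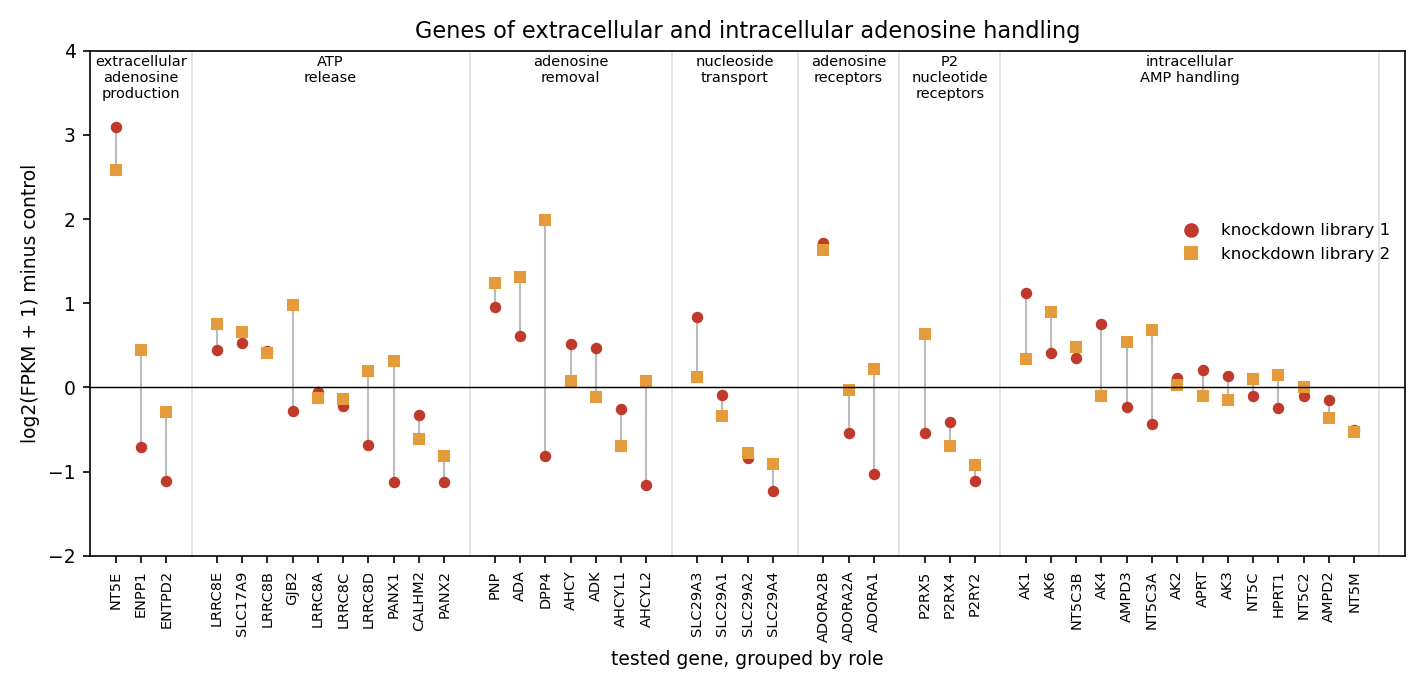
Difference from the control on the log2(FPKM + 1) scale for each tested gene of the 7 lists, in knockdown library 1 (circles) and library 2 (squares), grouped by role; a grey line joins the libraries of a gene. NT5E and ADORA2B stand above the other genes of their roles in both libraries, and long lines, such as that of DPP4 (from -0.82 to 1.98), mark genes on which the knockdown libraries differ.

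Downstream of ADORA2B, 15 genes of stimulatory G protein and cyclic AMP signaling were tested. Of these, 4 were higher in both knockdown libraries and 8 lower in both, beside 31.7% and 37.6% of all genes. Their median log2 difference was -0.38 (-0.05 over all genes), and none passed limma's test. The 15 include the transcription factor genes CREB1 and ATF1. They also include the phosphodiesterase genes PDE4A and PDE4B, whose products break down cyclic AMP, so these counts give no direction for the route. PDE4B, at 35.8 FPKM against 30.7 and 17.9, was among the 8 lower, and PDE4A lay on opposite sides. The adenylyl cyclase genes tested were split. ADCY9 (5.46 FPKM against 2.95 and 2.27) and ADCY6 (12.7 against 8.39 and 5.42) were lower in both. ADCY3 (14.2 against 16.3 and 18.6) and ADCY7 (7.35 against 8.31 and 9.22) were higher in both. The regulatory subunit gene PRKAR2B (7.27 against 1.78 and 4.45) was lower in both, while PRKAR2A was at 11.97 against 20.8 and 16.9. CREB1, the transcription factor that protein kinase A activates, was at 6.15 against 4.45 and 4.51. Of 12 tested genes listed for the cyclic AMP response, 6 were higher in both and 4 lower in both, against the same shares of all genes. Their median was 0.17, and 0 passed. The list mixes responding genes with the CREB coactivator genes CRTC1, CRTC2 and CRTC3. CRTC1 and CRTC3 were among the 4 lower, and CRTC2 was among the 6 higher. At an unadjusted p under 0.05 there was 1 of these 12, AREG. AREG, an epidermal growth factor family ligand that ERK signaling also induces, had 108 FPKM in the control against 293 and 272 in the knockdown libraries, with a log2 difference of 1.38 ± 0.40 (SE) and a limma adjusted p of 0.494. The orphan receptor gene NR4A2 was at 8.56 against 16.9 and 11.6, JUNB at 53.4 against 70.8 in both, and the CREB coactivator gene CRTC3 at 12.1 against 7.91 and 5.13.

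Of 11 tested transcription factor genes known to act at NT5E or ADORA2B, 4 were higher in both knockdown libraries and 5 lower in both, beside 31.7% and 37.6% of all genes, and none passed limma's test, with 1 at an unadjusted p under 0.05. That gene was STAT3, at 16.9 FPKM in the control against 44.2 and 26.5 (log2 difference 0.98 ± 0.43, SE, adjusted p 0.693). SMAD3 was at 16.7 against 50.1 and 22.7, and the hypoxia factor gene EPAS1 at 8.20 against 12.6 and 14.2. HIF1A was at 39.7 FPKM in the control, 39.5 in library 1 and 61.1 in library 2. SP1, whose family binds GC boxes such as those found in every window of the 4 genes, was lower in both. It was at 31.7 against 18.7 and 19.7 (-0.69 ± 0.40, limma adjusted p 0.774).

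The genes nearest to NT5E in pattern were found by the distance between pairs of log2 differences from the control, over the 2 knockdown libraries and 11216 genes. ITGA2, a collagen-binding integrin subunit, was the nearest at a distance of 0.47, with 5.45 FPKM in the control against 44.4 and 28.7. SPRY4, a feedback inhibitor of receptor tyrosine kinase signaling, followed at 0.64, with 5.09 against 39.5 and 24.4. MAK16, a ribosome biogenesis factor, lay at 0.94 and FOSL1, an AP-1 subunit, at 0.95. None of these 4 passed limma's test (adjusted p 0.173, 0.173, 0.173 and 0.337). Likeness over 2 differences that share 1 control library is a description only.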

How the data were processed

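Polyadenylated RNA of 3 libraries was sequenced after TruSeq Stranded mRNA preparation, per the labels' protocols. FPKM values were computed by the authors and deposited for 15625 genes. Trimmomatic, HISAT2 and GRCh38.p13 were used, per the submitters' processing notes, while their versions, the counting program and its strand setting were not given in the sources used here. KEGG pathway names, deposited by the authors, stand beside them, as text (other values).

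From these, levels were compared as deposited, and log2(FPKM + 1) was tested with limma 3.58.1 in R 4.3.3 (mean-variance trend, mean FPKM of at least 1, 1 residual and 10.92 prior degrees of freedom, Benjamini-Hochberg threshold 0.05). Both steps were tested on simulated data. As no source names separate cultures, p-values reflect the spread among these libraries, which may be technical. Least whole reads were recovered for 100% of genes (relative tolerance 1e-12). Their ratios gave exact (Clopper-Pearson) and levels exact Poisson 95% intervals with scipy 1.17.1.

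The members and lists were chosen with earlier results of these data known. Named genes were the members, a preset set, up to 4 genes per list with the largest difference in the nearer library, the 5 nearest to NT5E in pattern and its 2 tested neighbours on each side. One gene taken by the rule is not reported here. Alternatives changed the pseudocount, filter, scaling, limma settings and the fold required, and left out each knockdown library.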

Additional observations from a re-analysis of the deposited data

How the results depend on the processing

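The difference of NT5E was 2.84 on the log2(FPKM + 1) scale, 3.25 with a pseudocount of 0.1 and 1.91 with 5. ADORA2B, at 1.68, was at 1.93 and 1.08 with these pseudocounts, 1.75 under median-ratio rescaling and 1.82 under quantile normalization. NT5E, ADA and ADORA2B were above the control in every setting run. Without each knockdown library in turn NT5E ranged from 2.59 to 3.09, ADA from 0.60 to 1.31, ADORA2B from 1.64 to 1.72, and ADK from -0.12 (reversed, without library 1) to 0.46. RAPGEF5, at -0.01, turned sign with a pseudocount of 5 (0.0045), median-ratio rescaling (0.047) and quantile normalization (0.25).

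Over all genes limma called 2 higher and 0 lower. It called 1 higher with a pseudocount of 5, median-ratio rescaling, no trend or robust fitting, and 0 with no filter, quantile normalization or a prior of 5 degrees of freedom. In every setting it called 0 of the other purine pathway genes. Genes of these lists lower in both libraries numbered 14, and 10 were higher in both. With no filter 26 were lower and 13 higher. Under median-ratio rescaling 11 were lower and 10 higher, and with a mean of at least 5 FPKM 10 were lower and 9 higher. Past 2-fold in both there were 0 higher and 0 lower. That became 1 higher with median-ratio rescaling, 1 lower with a pseudocount of 0.1, and 1 higher and 4 lower at 1.5-fold. Past 2-fold in 1 library, with the other left out, were 1 to 2 higher and 0 to 7 lower. Of 11216 genes, 136 were 2-fold higher and 191 lower in both, against 62 and 39 with a pseudocount of 5, 193 and 338 with a pseudocount of 0.1, and 131 and 107 with a mean of at least 5. No paired analysis was possible because the control has 1 library and its label gives no replicate number.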

Other observations

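Purine metabolism as a whole was read from the KEGG names deposited with the values. Of 78 tested genes of that pathway besides the 4 members, 24 were higher in both knockdown libraries, 22 lower in both and 32 on opposite sides, where 31.7% of all genes were higher in both and 37.6% lower in both, with a median log2 difference of -0.03 against -0.05 over all genes tested. None passed limma's adjusted threshold, and 2 had an unadjusted p under 0.05, as 7.07% of all genes did. Of 14 tested genes listed for AMP handling and related nucleotide steps inside the cell, 4 were higher in both libraries and 2 lower in both. By limma 0 passed, and 0 had an unadjusted p under 0.05. The adenylate kinase AK1 was at 13.1 FPKM in the control against 29.8 and 16.9, the nuclear adenylate kinase gene AK6 at 5.34 against 7.42 and 10.8, the nucleotidase gene NT5C3B at 56.2 against 71.8 and 78.5, and the mitochondrial nucleotidase gene NT5M at 1.54 against 0.780 and 0.756.

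The tested genes on either side of NT5E on chromosome 6, in RefSeq order, did not differ by as much. SNX14 and SYNCRIP, 9.71 and 112 kb after it, were also higher in both knockdown libraries, by less. TBX18 and CEP162, 685 and 1222 kb before it, were lower in both. SNX14, a sorting nexin, was at 17.8 FPKM in the control against 22.7 and 20.3, and SYNCRIP, an RNA-binding protein gene, at 43.1 against 52.2 and 50.3. On the other side TBX18, a T-box factor gene, was at 2.84 against 1.87 and 1.42, and CEP162, a centrosomal protein gene, at 2.74 against 0.945 and 1.91. None of these 4 passed limma's test (adjusted p from 0.831 to 0.935).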
